A study of Mus musculus and Rattus norvegicus with 2 samples.

Results

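The miR-99, miR-100 and miR-125 family was examined in small RNA of rat and mouse sperm taken from the caput, the head of the epididymis, where sperm begin to mature after leaving the testis. Its 5 members, miR-99a, miR-99b, miR-100, miR-125a and miR-125b, were chosen by name: every sequence whose matched entry, without species prefix, copy number and arm, carried one of these names was counted. They were 5 of the 411 miRNAs listed over both libraries, of which 259 were listed in rat and 307 in mouse, and all 5 were listed in each. The rat library came from Sprague Dawley young adults of 450 g and the mouse library from C57BL/6 animals of 2 months. Both held total RNA of purified caput sperm extracted with Trizol and size-selected at 18 to 45 nt, and the number of animals behind each is not given in the labels. There was 1 library per species and so no replicate. Ratios between species therefore compare 2 libraries that differ in species and strain at once, and carry no test. No age in months is given for rat, so the ages cannot be compared. All intervals below are exact 95% intervals that cover counting error only, because reads copied by PCR without molecular identifiers are not independent molecules.

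A mature miRNA finds its targets through its seed, bases 2 to 8 from the 5′ end, and is cut as the 5p or the 3p arm of a hairpin. miR-100 is among the most anciently conserved animal miRNAs, and MTOR and IGF1R are among the known mammalian targets of the miR-99 and miR-100 members. The miR-125 members are relatives of lin-4, the first miRNA described in worms, and like let-7 they repress LIN28. In mammals the genes of both seed groups lie in clusters with a let-7 gene.

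The mature 5p sequences from RefSeq (mouse, GRCm38.p6) show how little separates the members of a seed group, and capitals mark the seed.
miR-99a-5p: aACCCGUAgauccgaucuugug
miR-99b-5p: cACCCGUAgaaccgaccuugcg
miR-100-5p: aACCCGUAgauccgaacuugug
miR-125a-5p: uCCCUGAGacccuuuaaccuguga
miR-125b-5p: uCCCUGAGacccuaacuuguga
Counted from 1 at the 5′ end, miR-99a-5p and miR-100-5p differ at 1 base, U16A. miR-99a-5p and miR-99b-5p differ at 4 bases, A1C, U11A, U16C and U21C. All lie on the plus strand: miR-99a-5p at chr16:77598940-77598961, miR-99b-5p at chr17:17830194-17830215, miR-100-5p at chr9:41531437-41531458 and miR-125a-5p at chr17:17830817-17830840. The miR-125b-5p sequence is encoded by 2 genes, at chr9:41581940-41581961 and chr16:77646279-77646300, which its 5p reads cannot separate. In the GENCODE annotation, Mir99a, Mirlet7c-1 and Mir125b-2 are intronic in the long non-coding gene Mir99ahg. Mir100, Mirlet7a-2 and Mir125b-1 are intronic in the non-coding genes 3110039I08Rik and Gm49317, and Mir125b-1 also overlaps an exon of Gm28119. Mir99b and Mirlet7e are intronic in Spaca6, which encodes a sperm acrosomal protein needed for fusion with the egg in mice, and Mir125a overlaps one of its exons.

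The libraries held 14652889 listed reads in rat and 11760708 in mouse, in 650877 and 914516 distinct sequences of 18 to 96 nt, beyond the labelled size fraction at its upper end. Reads under miRNA entries made up 2.22% in rat and 6.06% in mouse. A single small nucleolar RNA, SNORD58, held 0 rat reads and 4021449 mouse reads, so every share of listed reads depends on whether it is counted. The 5p arms of miR-10a and miR-10b held 106360 of 324837 miRNA reads in rat and 493647 of 712239 in mouse. Every share of miRNA reads likewise depends on whether miR-10 is counted. The family held 2125 reads in 94 sequences in rat and 7555 reads in 114 sequences in mouse, which was 0.654% and 1.06% of the miRNA reads.

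Summed over members and arms, the family stood at 145 reads in every 1000000 listed reads (rpm) in rat and 642 rpm in mouse, a log2 ratio of rat over mouse of -2.15 (-2.22 to -2.08), or 4.43-fold lower in rat. Per miRNA read in place of per listed read, the ratio was -0.70, and -1.83 with miR-10 left out of the miRNA reads. In bulk samples, fewer cells of a type and less RNA per cell cannot be told apart. The difference lay almost wholly in 1 member: without miR-99b the family stood at 109 rpm in rat and 131 rpm in mouse, a log2 ratio of -0.27 (-0.37 to -0.17) per listed read that turned to 1.18 (1.08 to 1.28) per miRNA read. Only 5p reads carry the seeds shown above. The 5p reads of miR-99a, miR-99b and miR-100 stood at 61.6 rpm in rat and 565 rpm in mouse, with a log2 ratio of -3.20 (-3.30 to -3.10). The 5p reads of miR-125a and miR-125b stood at 65.1 rpm in rat and 72.4 rpm in mouse, a log2 ratio of -0.15 (-0.29 to -0.02) per listed read and 1.30 per miRNA read. Counted by sequence, as reads under any entry that hold bases 2 to 20 of a member, the ratio was -0.03 (-0.16 to 0.10). With 3p reads included, the miR-125 members stood at 82.5 rpm in rat and 77.0 rpm in mouse, a log2 ratio of 0.10 (-0.03 to 0.22), so their sum has no direction that holds.

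miR-99b-5p, the member made from the Spaca6 locus with the miR-99 seed, had 525 reads (35.8 rpm, 32.8 to 39.03) in rat and 6004 reads (511 rpm, 498 to 524) in mouse. It was 14.2-fold lower in rat, a log2 ratio of -3.83 (-3.96 to -3.70), and ranked 32 of 377 miRNA names in rat and 8 of 391 in mouse. miR-100-5p, 1 base away from miR-99a-5p, had 101 reads (6.89 rpm, 5.61 to 8.38) in rat and 303 reads (25.8 rpm, 22.9 to 28.8) in mouse, a log2 ratio of -1.90 (-2.24 to -1.57). By name it was the least abundant 5p arm of the family in both libraries, but in mouse 36.3% of its reads stood outside the name. By sequence miR-100-5p had 460 reads there, against 404 of miR-125b-5p and 356 of miR-99a-5p. Its ratio to miR-125b-5p, 1.14 (0.994 to 1.30), included 1, so it was resolved only from miR-99a-5p. miR-99a-5p had 276 reads (18.8 rpm) in rat and 335 reads (28.5 rpm) in mouse. Its log2 ratio was -0.60 (-0.83 to -0.36) per listed read and 0.85 per miRNA read, so its direction depended on the denominator. With miR-10 left out of the miRNA reads it was -0.28.

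The miR-125 5p arms were close in level between libraries. miR-125a-5p, the neighbour of miR-99b in Spaca6, had 537 reads (36.6 rpm, 33.6 to 39.9) in rat and 478 reads (40.6 rpm, 37.1 to 44.5) in mouse. miR-125b-5p had 417 reads (28.5 rpm, 25.8 to 31.3) in rat and 374 reads (31.8 rpm, 28.7 to 35.2) in mouse. Their log2 ratios were -0.15 (-0.33 to 0.03) and -0.16 (-0.37 to 0.05) per listed read, and 1.30 and 1.29 per miRNA read. With miR-10 left out of the miRNA reads they were 0.17 and 0.16. Neither has a direction that holds over these denominators. In order of level by name, the rat 5p arms ran miR-125a, miR-99b, miR-125b, miR-99a and miR-100, and the intervals of miR-125a and miR-99b overlapped. By sequence, miR-99b led in rat with 604 reads against 534 of miR-125a, a ratio of 1.13 (1.01 to 1.27). The mouse order by name was miR-99b, miR-125a, miR-125b, miR-99a and miR-100, in which the intervals of miR-125b, miR-99a and miR-100 overlapped from one neighbour to the next. By sequence the mouse order was miR-99b with 8194 reads, miR-125a with 466, miR-100 with 460, miR-125b with 404 and miR-99a with 356. After miR-99b, the intervals of their shares by sequence overlapped from one neighbour to the next.

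**Figure D1:**
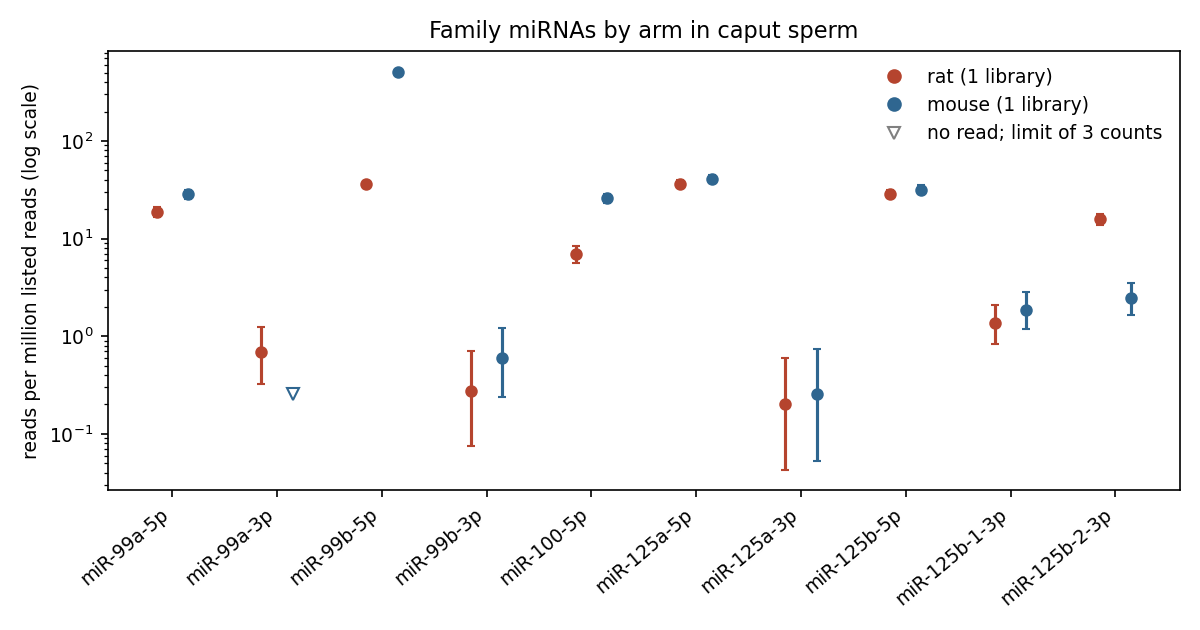
Reads in every 1000000 listed reads (rpm, log axis) of each arm of the 5 members in the rat and the mouse library, as points with exact 95% counting intervals; the open triangle marks an arm with no read at the limit of 3 counts. The gap between libraries is widest for miR-99b-5p, at 35.8 rpm in rat and 511 rpm in mouse, and miR-125b-2-3p stands at 15.8 rpm in rat and 2.47 rpm in mouse.

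Of the 10 arms listed, 6 had at least 100 reads over both libraries. Among these 6, 2 were at least 2-fold lower in rat, miR-99b-5p and miR-100-5p, and 1 was at least 2-fold higher, miR-125b-2-3p. Over all 86 miRNAs with that many reads, 15.1% were at least 2-fold lower and 51.2% at least 2-fold higher. The median log2 ratio was -0.38 over the 6 family arms and 1.01 over the 86 miRNAs. From the lowest ratio, miR-99b-5p was number 4 of 86, miR-100-5p 8, miR-99a-5p 15, miR-125b-5p 18, miR-125a-5p 19 and miR-125b-2-3p 70. Per miRNA read, which adds 1.45 to every log2 ratio, 1 family arm was at least 2-fold lower, miR-99b-5p, against 5.81% of all, and 3 were at least 2-fold higher against 82.6% of all. Both medians move by that same constant, to 1.07 for the family arms and 2.46 for the 86 miRNAs. The distance between them is thus fixed and is no second observation. With miR-10 left out of the miRNA reads, the added constant is 0.32.

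**Figure D2:**
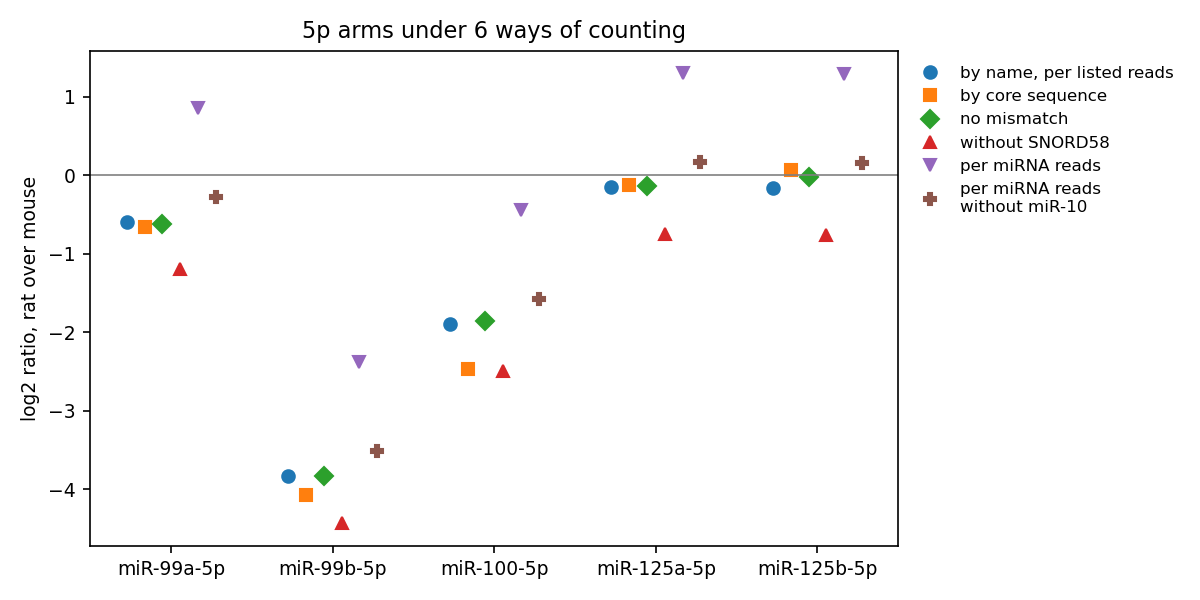
Log2 ratio of rat over mouse of each 5p arm under 6 ways of counting, 1 symbol per way, with a line at 0 for equal levels. miR-99b-5p and miR-100-5p lie below 0 under all 6, while miR-99a-5p, miR-125a-5p and miR-125b-5p cross 0.

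Shares within the family do not depend on the size of a library. miR-99b made up 24.9% (23.1 to 26.8) of the family's reads in rat and 79.6% (78.6 to 80.5) in mouse. The miR-125 members made up 56.9% (54.8 to 59.0) in rat and 12.0% (11.3 to 12.7) in mouse over both arms. Among 5p reads, which carry the seed, they made up 51.4% (49.1 to 53.7) in rat and 11.4% (10.7 to 12.1) in mouse, so the seeds were nearly even in rat while that of miR-99 and miR-100 led in mouse. miR-125b held 31.5% in rat and 5.63% in mouse, and miR-125a 25.4% in rat and 6.37% in mouse. miR-99a held 13.5% in rat and 4.43% in mouse, while miR-100 held nearly the same share, 4.75% in rat and 4.01% in mouse.

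**Figure D3:**
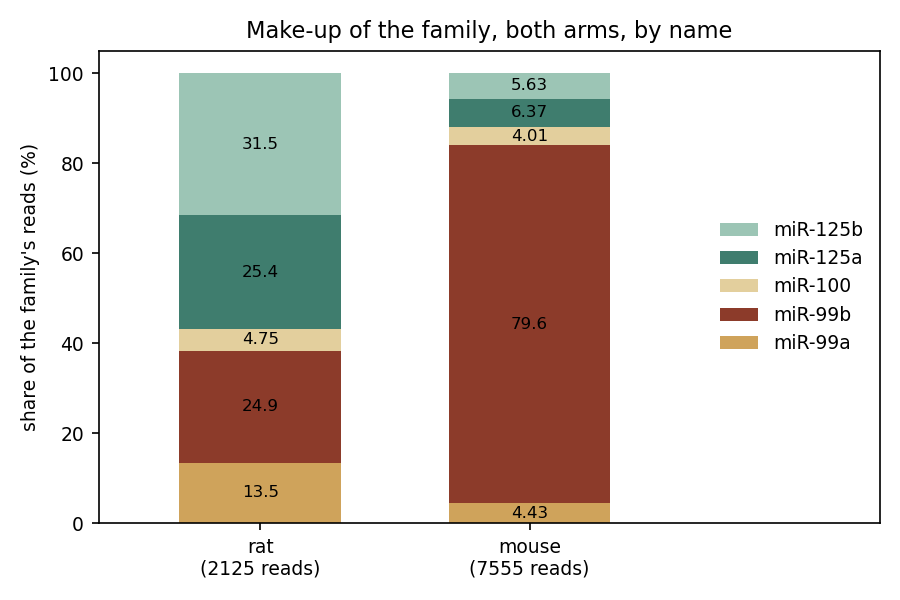
Share of the family's reads (percent, both arms) held by each member in the rat and the mouse library, stacked to 100%. miR-99b fills 24.9% of the rat bar and 79.6% of the mouse bar.

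Pairs of members were also compared within a library. There were 0.978 (0.865 to 1.10) reads of miR-99b-5p per read of miR-125a-5p in rat and 12.6 (11.4 to 13.8) in mouse. Both mouse genes lie in Spaca6, and the transcripts they are cut from were not measured. The log2 difference, rat minus mouse, was -3.68 (-3.91 to -3.46). miR-99a-5p per miR-100-5p was 2.73 in rat and 1.11 in mouse, a log2 difference of 1.31 (0.90 to 1.72). By sequence this ratio was 2.73 in rat and 0.774 (0.672 to 0.891) in mouse, so in mouse it turned to below 1, and the difference was 1.82 (1.42 to 2.21). miR-125a-5p per miR-125b-5p was almost equal by name, 1.29 in rat and 1.28 in mouse, a log2 difference of 0.01 (-0.26 to 0.29). By sequence it was 1.01 in rat and 1.15 in mouse, a difference of -0.19 (-0.46 to 0.07).

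Each member was next set against the let-7 of its cluster. let-7 miRNAs hold back proliferation and accumulate as cells differentiate, and let-7a and let-7c are also made from other loci, whereas let-7e comes from the Spaca6 cluster alone. let-7e-5p stood at 7.92 rpm in rat and 16.2 rpm in mouse, let-7c-5p at 220 rpm in rat and 604 rpm in mouse, and let-7a-5p at 76.2 rpm in rat and 261 rpm in mouse. In the Spaca6 cluster the members went apart: miR-99b-5p per let-7e-5p was 4.53 in rat and 31.6 in mouse, a log2 difference of -2.80 (-3.17 to -2.43), whereas miR-125a-5p per let-7e-5p was 4.63 in rat and 2.52 in mouse, a log2 difference of 0.88 (0.49 to 1.27). In the Mir99ahg cluster, miR-99a-5p per let-7c-5p was 0.0857 in rat and 0.0471 in mouse, a log2 difference of 0.86 (0.62 to 1.11), and miR-125b-5p per let-7c-5p was 0.130 in rat and 0.0526 in mouse, a difference of 1.30. In the third cluster miR-100-5p per let-7a-5p was 0.0905 in rat and 0.0987 in mouse, a log2 difference of -0.12 (-0.48 to 0.22), but -0.83 when reads were found by sequence. miR-125b-5p per let-7a-5p was 0.374 in rat and 0.122 in mouse, a log2 difference of 1.62 (1.39 to 1.85).

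miR-10a and miR-10b, abundant relatives of miR-100 by sequence, were lower in rat as well. Together their 5p arms stood at 7259 rpm in rat and 41974 rpm in mouse, a log2 ratio of -2.53, and -2.61 by sequence. The 3 miRNAs outside the family whose ratio lay closest to that of the family sum over the 2 libraries were miR-871-3p at -2.27, let-7b-5p at -2.36 and let-7a-5p at -1.78.

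The 5p arm carried most reads of every member. The 3p share was not higher in rat for every member: for miR-125a it was 0.556% in rat and 0.624% in mouse. The mouse family total of 7555 reads holds 6004 of miR-99b-5p, which keeps the mouse family's 3p share low. Over the family, 12.7% (11.3 to 14.1) of reads were 3p in rat and 0.807% (0.618 to 1.04) in mouse. Most of this came from miR-125b, with 37.7% (34.0 to 41.5) 3p reads in rat and 12.0% (9.07 to 15.5) in mouse. Unlike the 5p arms, the 3p arms of miR-125b can be assigned to their genes. Copy 2, in the miR-99a cluster, had 232 reads (15.8 rpm) in rat and 29 reads (2.47 rpm) in mouse, 6.33-fold higher in rat with a log2 ratio of 2.66 (2.12 to 3.29). Copy 1, in the miR-100 cluster, had 20 reads in rat and 22 in mouse. Copy 2 thus gave 92.1% (88.0 to 95.1) of the miR-125b 3p reads in rat and 56.9% (42.2 to 70.7) in mouse.

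The leading full-length rat read of the 3p arm of copy 2 differs at 1 base, in capitals, from the RefSeq mouse form (with T for U).
rat miR-125b-2-3p: acaagtcaggCtcttgggacct
mouse miR-125b-2-3p: acaagtcaggTtcttgggacct
The change from mouse to rat is U11C. C stood at that position in 226 of 232 rat reads (97.4%) and in 2 of 29 mouse reads (6.90%), and the other 27 mouse reads carried U, the RefSeq base. The rat form is that of the leading rat read, so the rat share says only how uniform the rat reads were. The other 3p arms were rare. miR-99a-3p had 10 reads (0.682 rpm) in rat and 0 in mouse, where 0 of 335 miR-99a reads allow a 3p share of up to 0.896%. miR-99b-3p had 4 reads in rat and 7 in mouse, and miR-125a-3p had 3 in each. miR-100 had no 3p read among 101 in rat, which allows up to 2.97%, or among 303 in mouse, which allows up to 0.990%.

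Because each read was listed under a single entry, reads of these miRNAs could also stand under another name. Reads of up to 30 nt in every class were therefore searched for the core, bases 2 to 20 of the leading form, which separates all 5 members. Under GenBank microRNA records stood a further 117 rat reads (19.4% of 604) and 2304 mouse reads (28.1% of 8194) of miR-99b-5p, and 167 mouse reads (36.3% of 460) of miR-100-5p. For miR-100-5p in rat, 4 of 103 reads (3.88%) stood outside the name. For miR-125b-5p, 120 of 529 rat reads (22.7%) and 41 of 404 mouse reads (10.1%) did, and 69 of the rat reads stood under miR-3588. Counted by core, the log2 ratio was -4.08 (-4.20 to -3.96) for miR-99b-5p, -2.47 (-2.80 to -2.17) for miR-100-5p and 0.07 (-0.12 to 0.26) for miR-125b-5p. The core count left 2 family arms at least 2-fold lower against 14.0% of the 86 miRNAs, and 1 at least 2-fold higher against 44.2%.

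Reads found by core also show where each miRNA ends. The core begins at base 2 and so admits no read that starts later. Among exact reads listed by name, which can start later, between 0.235% and 2% of the reads of each member in each library started after the first mature base. The 3′ end varied by member. miR-125b-5p was the most uniform, with 70.3% of rat reads and 68.1% of mouse reads at the annotated end. miR-125a-5p, annotated at 24 nt, was most often 22 nt long, in 44.6% of rat reads and 35.8% of mouse reads. miR-99a-5p ended at the annotated base in 64.4% of rat reads and 44.4% of mouse reads, and 1 base short in 16.4% of rat reads and 41.9% of mouse reads. miR-100-5p was most often 21 nt long in both, and 36.9% of rat reads and 48.5% of mouse reads ended 1 base short. A further 33.0% of rat reads and 2.61% of mouse reads were 2 bases short. By contrast, 3.88% of rat reads and 36.3% of mouse reads ran past the annotated end. The miR-100-5p reads outside the name were 4 under Rfam in rat and 167 under GenBank records in mouse. Reads by name could not run past the end, and whether the records list longer forms alike in both species was not tested. For miR-99b-5p, 19.4% of rat reads and 28.1% of mouse reads ran past the annotated end.

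**Figure D4:**
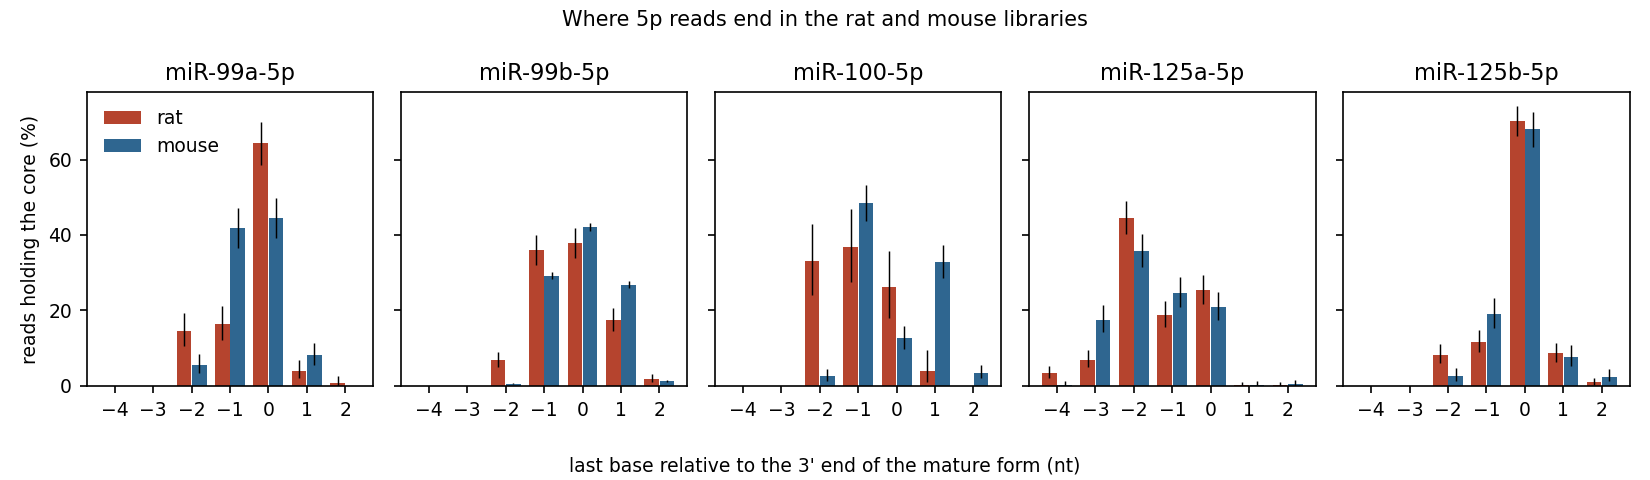
Percent of core reads of each 5p arm by the position of their last base relative to the annotated 3′ end (nt), for the rat and the mouse library, with exact 95% counting intervals. For miR-100-5p, 3.88% of rat reads and 36.3% of mouse reads lie beyond the end, listed under different kinds of record in the libraries.

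Most reads past the end carried bases that did not match the entry they were listed under. A final run of 1 or 2 mismatched bases is called a tail here. Finished miRNAs are known to receive U or A at the 3′ end from nucleotidyltransferases, and whether the tails arose in that way was not tested. The base that follows each mature form in the genome was not compared with the tails. The sequences below are the tailed forms that the counts turn on, with the mismatched base in capitals and T for U.
miR-99b-5p with U: cacccgtagaaccgaccttgcgT
miR-99b-5p with A: cacccgtagaaccgaccttgcgA
miR-100-5p with A: aacccgtagatccgaacttgtgA
miR-100-5p with U: aacccgtagatccgaacttgtgT
miR-125b-5p with last base G: tccctgagaccctaacttgtgG
miR-125b-5p with A: tccctgagaccctaacttgtgaA
The U form of miR-99b-5p had 25 reads in rat and 1497 in mouse, and its A form 75 in rat and 678 in mouse. The A form of miR-100-5p had 2 reads in rat and 98 in mouse, and its U form 1 in rat and 45 in mouse. The G form of miR-125b-5p, with 53 reads in rat, is as long as the mature form and was listed under miR-3588. The miR-125b-5p form with a further A had 40 reads in rat and 21 in mouse.

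In all, 21.9% (18.6 to 25.4) of miR-99b-5p reads were tailed in rat and 30.1% (29.2 to 31.2) in mouse. The tail base differed: U made up 25.2% (18.0 to 33.5) of its U and A tails in rat and 64.9% (63.0 to 66.8) in mouse. For miR-100-5p, tails stood on 4 of 103 reads in rat (3.88%, 1.07 to 9.65) and on 173 of 460 in mouse (37.6%, 33.2 to 42.2). Its longer forms stood under different kinds of record in the libraries, and whether these list such forms alike was not tested. In mouse the miR-100-5p tails were mostly A. U made up 28.2% (21.5 to 35.8) of its U and A tails, on the other side of even from miR-99b-5p in the same library. miR-99a-5p, which differs from miR-100-5p at 1 base, was tailed in 0.712% of rat reads and 7.30% (4.83 to 10.5) of mouse reads. A further 12 rat reads of miR-99a-5p stood under an Rfam entry with an inner mismatch as well and were not counted as tailed. They include the 23-nt forms with a further A (4 reads) and U (4 reads). In mouse the same sequences, with 9 and 16 reads, were counted as tailed. The tailed shares of miR-99a-5p therefore do not count the same forms in the libraries. miR-125a-5p was tailed in 9.36% of rat reads and 10.1% of mouse reads, and miR-125b-5p in 21.6% (with the G form) of rat reads and 15.6% of mouse reads.

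Over all miRNAs with at least 100 core reads in the library, the median tailed share was 12.8% over 98 miRNAs in rat and 10.7% over 66 in mouse. From the highest share, miR-99b-5p was number 29 of 98 in rat and 11 of 66 in mouse, and miR-100-5p was 81 in rat and 7 in mouse. By the share with A tails miR-99b-5p was number 7 in each library, and miR-100-5p was number 3 in mouse.

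**Figure D5:**
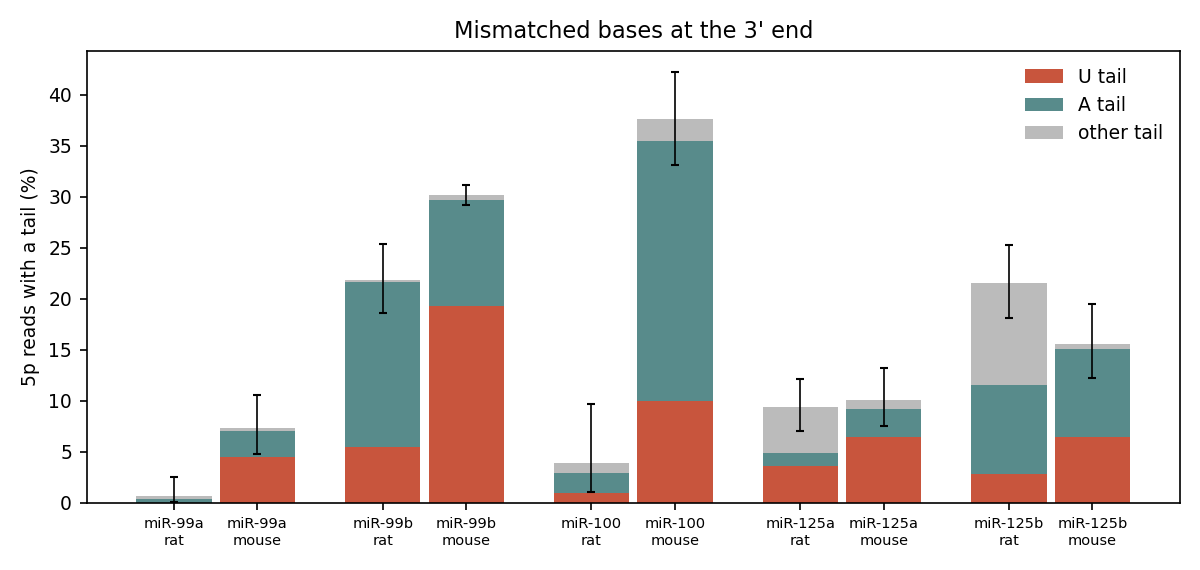
Percent of core reads of each 5p arm that end in mismatched bases, split by tail base, for the rat and the mouse library; the error bar is the exact 95% counting interval of the total. miR-99b is mostly A-tailed in rat and mostly U-tailed in mouse, and miR-100 is tailed in 3.88% of rat reads and 37.6% of mouse reads.

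Markers of cells that a sperm preparation could hold also differed between libraries. The 3 miRNAs of male germ cells and ciliated cells, miR-34b, miR-34c and miR-449a, were all listed and summed to 900.3 rpm in rat and 14.2 rpm in mouse. The 6 epithelial miRNAs of the miR-200 family and miR-205 were all listed, at 370 rpm in rat and 223 rpm in mouse. The 4 muscle miRNAs, miR-143, miR-145, miR-1 and miR-133a, were all listed, at 1855 rpm in rat and 847 rpm in mouse. Of 4 leukocyte miRNAs, 4 were listed in rat and 2 in mouse, where miR-223 and miR-155 were at 0, and the list summed to 17.5 rpm in rat and 0.765 rpm in mouse. Of 3 red blood cell miRNAs, 2 were listed in each library, at 5.53 rpm in rat with miR-486 at 0 and 7.14 rpm in mouse with miR-144 at 0. The endothelial miR-126 stood at 27.0 rpm in rat and 15.7 rpm in mouse. The part of any of these cells in the family's values was not tested.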

How the data were processed

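Per the file headers, the deposited values are raw read counts, 1 for each distinct sequence, with 1 matched entry and up to 2 mismatches to it. Bowtie 0.12.7, mm9 and rn5 are named in the submitters' processing notes without their role, and trimming is not given in the sources used here. A closing sum line of the mouse table was left out. Members and lists were chosen with earlier results of these data known.

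Counts were summed by entry name or by core sequence and divided by all listed reads, which are not all reads sequenced. Ratios used a pseudocount of 0.5 read, Clopper-Pearson intervals for shares and exact conditional intervals for ratios (Python 3.11.15, numpy 2.4.6, scipy 1.17.1, matplotlib 3.10.9), tested on simulated data. The 2-fold calls needed 100 reads over both libraries. A read was tailed when its only mismatches were a final run of 1 or 2 bases. Reads by name could not extend past the matched mature entry. All members and arms are named, with let-7a, let-7c, let-7e, miR-10a, miR-10b and the 3 miRNAs closest in ratio to the family sum. The limit that a count of 0 allows is 3 counts. Sequences are from RefSeq (GRCm38.p6) and the deposited tables, and gene overlaps from GENCODE vM21. No rat genome was used here.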

Additional observations from a re-analysis of the deposited data

Results flagged for a closer look

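Reads over 30 nt lay outside the measurements above. Among them, 12 mouse reads in 5 sequences, the longest of 55 nt, held the miR-99b-5p core, above the limit of 3 counts. The rat library had 1 such read, of 38 nt.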

How the results depend on the processing

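No paired analysis was possible because there was 1 library per species. The log2 ratio of the family sum, -2.15, was -0.70 per miRNA read, -1.83 per miRNA read without miR-10, -2.75 per listed read without SNORD58, -2.39 by core, -2.37 with core and name combined (added after seeing the data) and, reversed, 0.21 by number of distinct sequences. Arms at least 2-fold lower in rat numbered 1 per miRNA read, 0 by distinct sequences, 3 without SNORD58 and 3 with no minimum, in place of 2. Arms at least 2-fold higher numbered 3 per miRNA read, in place of 1. With exact reads only, the 5p share was 90.1% in rat and 99.5% in mouse, and the miR-125 share 11.1% in mouse. Reads past the mature end were then 0.404% in rat and 0.155% in mouse. Most such reads carry mismatches, so this fall was fixed in advance by the setting. By distinct sequences, 35.8% in rat and 46.2% in mouse ended past the mature end, in place of 9.22% in rat and 25.7% in mouse. By core, the mouse shares were 9.37% for miR-125 and 82.4% for miR-99b, and the log2 differences 1.61 for miR-125b-5p per let-7c-5p and -0.83 for miR-100-5p per let-7a-5p. With 5p arms only (added after seeing the data), the rat shares were 51.4% for miR-125 and 28.3% for miR-99b. The causes were not tested. Over 9 alternatives, miR-99b-5p stayed lower in rat in 9 (-4.44 to -0.98) and miR-100-5p in 8 (-2.50 to 0.055, reversed by distinct sequences). miR-99a-5p kept its sign in 7, miR-125a-5p in 6 and miR-125b-5p in 5. These tallies include alternatives that could hardly turn a sign. Keeping only reads of 18 to 25 nt changed no value, and leaving out the pseudocount moved miR-100-5p only from -1.897 to -1.902. A count of distinct sequences gives a rare mismatch the weight of the main form, and the 3p arms other than that of miR-125b-2 are too shallow for any ratio.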
